A study of Mus musculus with 6 samples.

Results

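The genes described here had lower read counts in cultures from Chsy3 knockout mice than in every culture from wild-type and heterozygous mice. The exception is Ifi202b, which had 0 counts in wild type as well as in knockout. They were chosen from the measured values by a rule on CPM, a gene's count scaled to the total of its library so that all libraries have the same size. A gene was kept if its mean over the 4 wild-type and heterozygous libraries was at least 8 CPM and if the higher knockout library was at most 1/1.7 of the lowest of those 4. Unnamed gene models and 10 symbol prefixes, among them those of collagens, Hox genes, thrombospondins and integrins, were left out. Of 46095 genes in the table, 54 met the rule, and a further 18 met its level and fold conditions but carried a dropped name, Col1a1, Fbn1 and Piezo2 among them. Because the rule used the knockout libraries, the difference between knockout and the other genotypes is given as a description and was not tested for these genes.

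The samples are primary cultures of cells from the nucleus pulposus, the soft core of the intervertebral disc, dissected from mice aged 8 weeks and labelled male. The tissue was digested with collagenase for 2 h, grown in medium with 20% fetal bovine serum and used at passage 2. The 3 genotypes are wild type, Chsy3 heterozygous and Chsy3 knockout, with 2 libraries each and no other allele or treatment named. The series title speaks of a knockdown, while the labels give genotypes. The sources used here do not say how the allele was made or whether libraries come from separate animals, so the errors below cover the spread between these libraries, which may be technical.

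Chsy3 encodes a chondroitin sulfate synthase, which lengthens the chondroitin chains carried by proteoglycans. In the disc these charged chains hold water and bind growth factors, and they sit in a network of collagen, elastic fibres and adapter glycoproteins that connective tissue cells secrete. Cultured mesenchymal cells express many of these matrix genes together with surface markers such as Thy1 and Cd248, and a gene set drawn from such cultures often mixes matrix, adhesion and signalling genes.

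Total counts lay between 29622117 and 33899611 per library. Chsy3 had 284 and 284 counts in wild type, 167 and 197 in heterozygous and 118 and 76 in knockout libraries, in the order of the labels. The cultures held macrophage transcripts at a high level, with the receptor gene Csf1r at 896 to 1151 CPM, while the nucleus pulposus and notochord genes T, Shh, Noto and Foxa2 had 0 counts in all 6 libraries and Acan was at most 0.236 CPM. The other 12 of the 17 listed genes of this cell type in the table included Lgals3, which macrophages also express, at 338 to 379 CPM in wild type and heterozygous and 1012 and 1025 CPM in knockout, and the list summed to 483 and 491 CPM in wild type, 507 and 512 in heterozygous and 1129 and 1141 in knockout. Sox9 lay at 15.3 to 56.9 CPM, Col2a1 at 5.01 to 23.0 CPM and Cdh2 at 51.4 to 56.6 CPM. Of the 10 tested genes of the list, 2 were higher and 3 lower in knockout than in wild type (edgeR, adjusted p under 0.05). Of all genes tested, 19.2% were higher and 18.9% lower. The part of these cells in the members' levels was not tested. In both heterozygous libraries the Y-linked genes Ddx3y, Uty, Kdm5d and Eif2s3y had 0 counts, against 261 counts or more for each of them in every wild-type and knockout library, and Xist was at 1052 and 1048 CPM against 656 to 668 CPM elsewhere. Reads of Xist in all 6 libraries, and the lack of Y-linked reads in the heterozygous ones, go against the male label, and whether animals of both sexes were pooled was not tested. In every comparison below that uses the heterozygous libraries, sex and genotype cannot be told apart.

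In knockout the members reached between 2.44% and 56.6% of their wild-type mean, with a median of 38.4%. Against their heterozygous mean they reached between 0% and 57.8%, with a median of 40.2%. The 0% is that of Ifi202b, and without it the lowest share was 3.99%. The knockout mean was at or under 50% of the wild-type mean for 45 members. The lowest wild-type or heterozygous library exceeded the higher knockout library by at least 3-fold for 12 members and by at least 2-fold for 28. Just inside the rule's fold of 1.7 lay Wisp1 at 1.701, P3h1 at 1.705, Slit3 at 1.723 and Ldlrad4 at 1.725, and just outside it lay Pknox2 at 1.69, Cmklr1 at 1.69, Hic1 at 1.68 and Csrp2 at 1.67. The ratios ran on across the rule's limit without a gap. The members were chosen by their knockout levels, so nothing is read from their number beside the shares of genes that passed the test in knockout against wild type, 38.0% of all genes tested and 49.3% of those at 8 CPM or more, and in knockout against heterozygous, 37.1% and 48.1%. The higher of a pair of libraries exceeded the lower by a median of 1.06-fold in wild type, 1.05-fold in heterozygous and 1.10-fold in knockout, and by at most 2.20-fold, for Eln in knockout. In these bulk cultures, fewer cells of a type and less RNA per cell cannot be told apart.

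**Figure D1:**
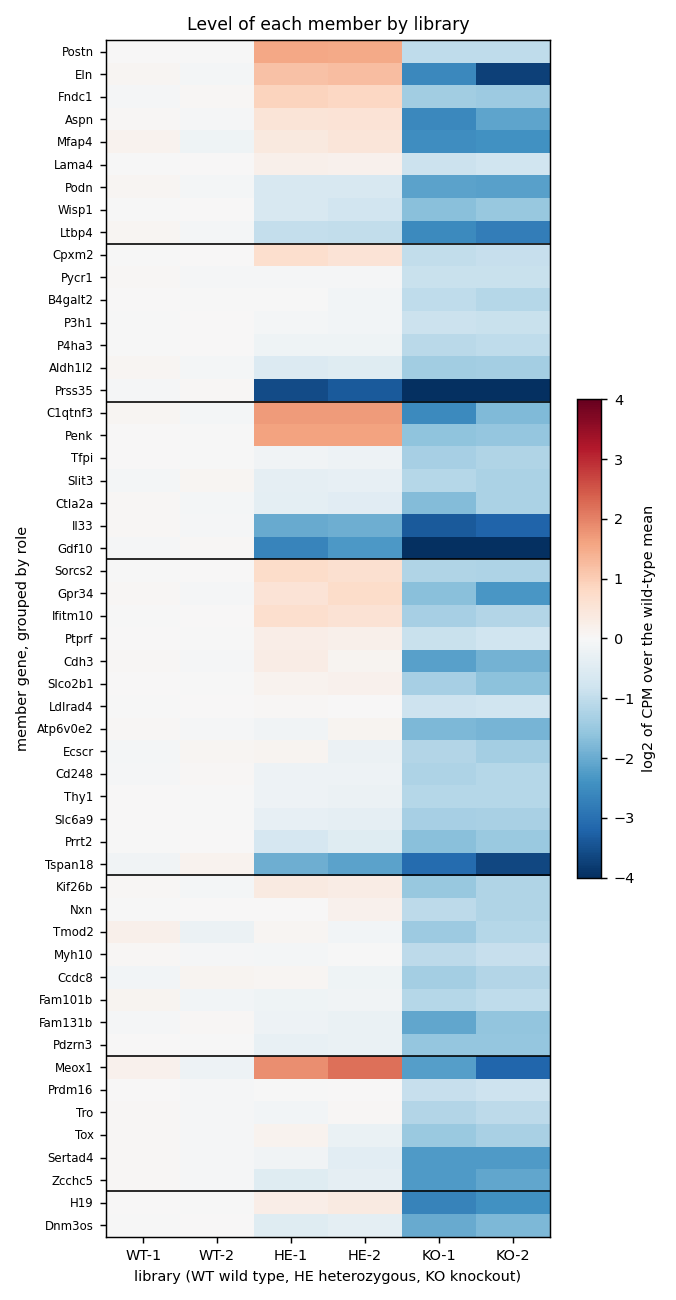
Each row is a member and each column a library, with rows grouped by role and separated by black lines, and the colour gives the log2 of CPM over the wild-type mean, limited to the range from -4 to 4. The 2 knockout columns are blue in all 53 rows, as the rule requires, while the heterozygous columns run from red for Meox1 and Penk to dark blue for Prss35 and Gdf10. Ifi202b, with a wild-type mean of 0, is not drawn.

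The members' levels in heterozygous cultures went in both directions against wild type. The rule asked for no direction between these genotypes, but its floor of 8 CPM on their joint mean bears on the comparison. Meox1, Gpr34, Ifitm10 and Ifi202b had wild-type means under 8 CPM and Prss35, Gdf10, Tspan18 and Ctla2a had heterozygous means under 8 CPM, so these 8 members met the floor through 1 genotype only, and their heterozygous differences are given as a description with no test. Of the other 46 members, 14 were higher in heterozygous than in wild type, 13 were lower and 19 did not pass the threshold (edgeR quasi-likelihood test over all genes, Benjamini-Hochberg adjusted p under 0.05). Among the 9721 genes with a mean of 8 CPM or more in each of the genotypes, 49.0% passed, 23.3% as higher and 25.7% as lower, and among all 16061 genes tested 38.9% passed, 19.2% as higher and 19.7% as lower. The median size of the heterozygous difference was 0.25 log2 for the 46 members and 0.17 log2 for the 9721 genes, with the sign left aside. The wild-type and heterozygous libraries did not overlap for 35 of the 46 members, against 67.4% of all genes tested. Over all 54 members the counts were 18 higher, 16 lower and 20 not past the threshold. Among the 10072 genes at a joint mean of 8 CPM or more, 49.9% passed it, 23.7% as higher and 26.2% as lower. The totals over 54 include the 8 members described without a test, so no result is read from them. The counts by role below are also over all 54 members. They are a description, since roles were assigned after the members were known.

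The name lowered in knockout only does not mean that heterozygous cultures were at the wild-type level. In 13 of the 46 members the heterozygous cultures were also below wild type past the threshold, in Il33 by at least 2-fold. Among the 9721 genes 25.7% were lower and 23.3% higher, so nothing about the members is read from this count. Members not past the threshold are not shown to be unchanged. In 4 of the 46, C1qtnf3, Penk, Postn and Eln, the heterozygous cultures were at least 2-fold above wild type. The call was lost for 5 members when 1 wild-type or heterozygous library was left out (edgeR, highest adjusted p over 13 alternatives 0.368 for Cdh3, 0.188 for Kif26b, 0.154 for Pdzrn3, 0.0647 for Prrt2 and 0.0544 for Mfap4, lowest 0.0146, 0.0165, 0.00931, 0.00188 and 5.67e-05). Cdh3 was lost without heterozygous library 1, wild-type library 1 or wild-type library 2, Kif26b and Pdzrn3 without any 1 of the 4 wild-type and heterozygous libraries, Prrt2 without heterozygous library 1 and Mfap4 without wild-type library 2. Cdh3 and Kif26b were also lost with library totals in place of TMM factors. Nxn passed without heterozygous library 1 (edgeR, adjusted p = 0.0324, range 0.0324 to 0.64).

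**Figure D2:**
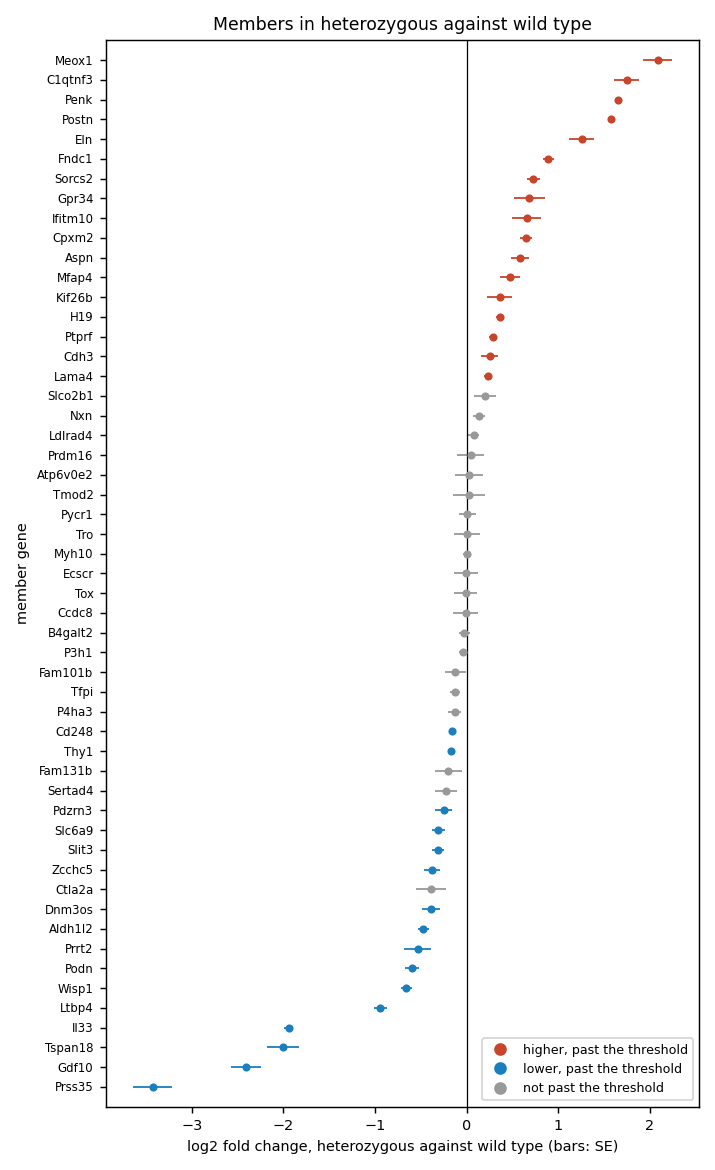
The log2 fold change of heterozygous against wild type is on the horizontal axis for 53 members, with bars for the standard error, red for members higher and blue for members lower past the threshold, and grey for the others. Values run from -3.43 for Prss35 to 2.09 for Meox1, with a grey stretch around 0 in between. Ifi202b is not drawn because it had no wild-type counts. Colours of members that met the floor through 1 genotype only, Prss35 and Meox1 among them, are a description with no test.

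Matrix proteins formed the first group, with 9 members, of which 6 were higher and 3 lower in heterozygous than in wild type. For this and later roles the background is 49.9% past the threshold among 10072 genes with a joint mean of at least 8 CPM. Eln, which encodes elastin, the core of elastic fibres, had 18.6 and 16.4 CPM in wild type, 39.7 and 41.5 in heterozygous and 2.90 and 1.32 in knockout. The 3 genotypes did not overlap, and knockout was at 12.1% of wild type. Heterozygous exceeded wild type by 1.26 ± 0.13 log2 (SE, edgeR, adjusted p = 1.76e-07). Mfap4, a microfibril-associated glycoprotein that binds elastin, had 22.0 and 17.8, 25.9 and 27.7, and 3.55 and 3.72 CPM in wild type, heterozygous and knockout. Ltbp4, which tethers latent TGF-beta to microfibrils and takes part in elastic fibre assembly, had 64.6 and 58.7, 31.6 and 30.9, and 10.5 and 9.08 CPM in the same order. Ltbp4 thus stepped down with each genotype, and its heterozygous level differed from wild type by -0.94 ± 0.08 log2 (SE, edgeR, adjusted p = 7.47e-14), whereas Eln and Mfap4 were higher in heterozygous.

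Postn, which encodes the matricellular protein periostin, had the highest level of the set per length of exon sequence, at 319 CPM per kb in wild type. Its libraries were at 1053 and 1048 CPM in wild type, 3042 and 3029 in heterozygous and 516 and 521 in knockout. The heterozygous mean CPM was 2.89-fold that of wild type (in the fit 1.57 ± 0.02 log2, SE, edgeR, adjusted p = 3.67e-42), so knockout stood at 49.4% of wild type but at 17.1% of heterozygous. Fndc1, a fibronectin type III domain protein, had 53.3 and 57.3 CPM in wild type, 101 and 98.1 in heterozygous and 21.2 and 20.4 in knockout, the same order as Postn. Aspn and Podn encode asporin and podocan, small leucine-rich proteins that bind collagen, and their heterozygous levels went apart. Aspn was at 24.7 and 23.3 CPM in wild type, 34.5 and 35.4 in heterozygous and 3.98 and 5.58 in knockout, and Podn at 54.3 and 49.7, 33.7 and 33.1, and 11.7 and 11.4 CPM. Heterozygous against wild type was 0.58 ± 0.10 log2 for Aspn and -0.60 ± 0.08 for Podn (SE, edgeR, adjusted p = 4.85e-06 and 1.16e-08). Lama4, a laminin chain of basement membranes, and Wisp1, a matricellular protein of the CCN family, were nearer to the border of the rule. Lama4 had 157 and 158, 180 and 178, and 86.8 and 90.2 CPM in the order above, and Wisp1 had 108 and 110, 70.1 and 64.0, and 34.2 and 37.6 CPM.

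**Figure D3:**
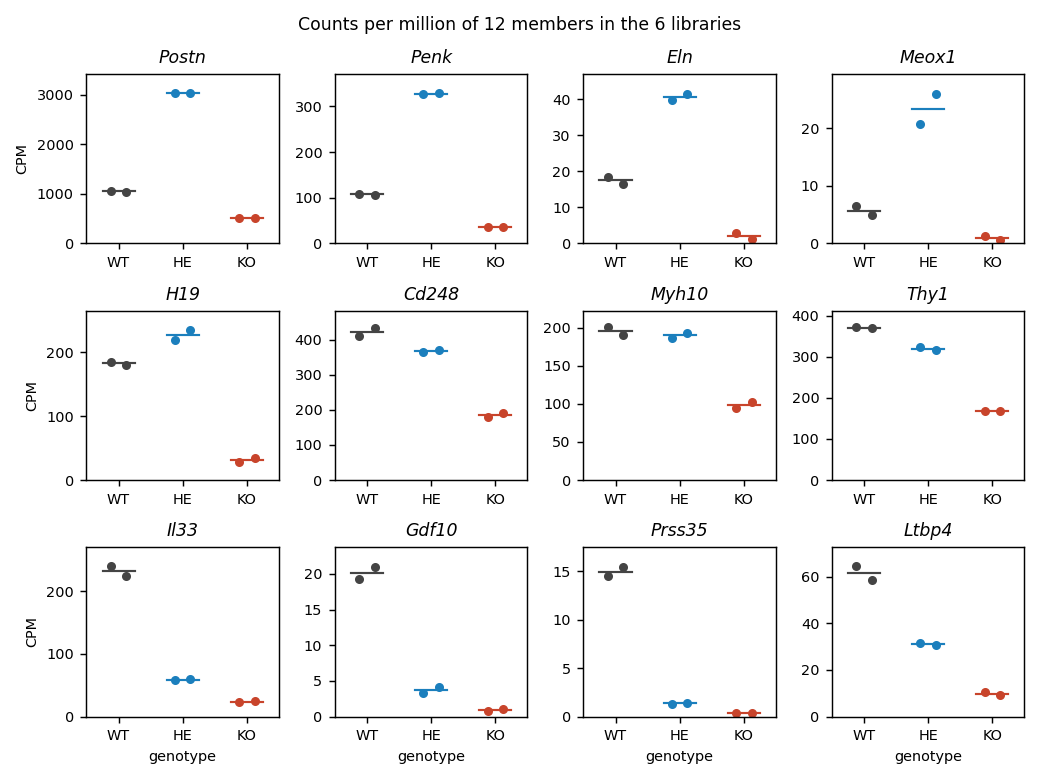
CPM of 12 members in each library, with a dot per library, a line at the genotype mean and axes that start at 0. Postn, Penk, Eln, Meox1 and H19 peak in heterozygous, Myh10 has overlapping wild-type and heterozygous libraries, and Cd248, Thy1, Il33, Gdf10, Prss35 and Ltbp4 step down from wild type through heterozygous to knockout.

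Enzymes that act on matrix proteins or supply proline and sugars made up 7 members. In heterozygous against wild type 1 was higher, 2 were lower and 4 did not pass the threshold. Prss35, among the lower, is given without a test. P3h1, a collagen prolyl 3-hydroxylase, had 155 and 159 CPM in wild type, 150 and 146 in heterozygous and 85.9 and 85.7 in knockout. P4ha3, a catalytic chain of prolyl 4-hydroxylase, had 49.6 and 50.4, 44.5 and 44.4, and 23.7 and 24.7 CPM. Pycr1, which carries out the last step of proline synthesis, had 27.2 and 25.3, 25.6 and 25.7, and 14.2 and 14.2 CPM. In these 3 genes knockout was at 48.4% to 54.6% of wild type, and the heterozygous difference did not pass the threshold (edgeR, adjusted p = 0.453, 0.132 and 0.969). P4ha3 passed with library totals alone (adjusted p = 0.0417, range over 13 alternatives 0.0417 to 0.336). The galactosyltransferase gene B4galt2 went with them at 66.4 and 65.2, 64.6 and 60.9, and 32.2 and 29.8 CPM. Aldh1l2, a mitochondrial enzyme of folate metabolism, was lower in heterozygous, with 97.0 and 87.2, 62.8 and 66.1, and 35.1 and 35.9 CPM.

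Prss35, which encodes a protein related to serine proteases, was the member with the lowest knockout share of wild type, 2.44%. It had 14.5 and 15.5 CPM in wild type, 1.25 and 1.45 in heterozygous and 0.339 and 0.390 in knockout. It met the floor through wild type, and its heterozygous libraries lay much nearer to knockout than to wild type. Cpxm2, a carboxypeptidase-like protein, showed the other order, with 42.7 and 43.8, 68.6 and 63.2, and 22.1 and 22.9 CPM.

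Secreted signals and inhibitors made up 7 members, with 2 higher, 3 lower and 2 not past the threshold in heterozygous. Gdf10, among the lower, and Ctla2a, among those not past the threshold, are given without a test. Penk, which encodes the precursor of the enkephalin peptides, had 108 and 107 CPM in wild type, 327 and 329 in heterozygous and 35.4 and 36.7 in knockout. Its heterozygous mean CPM was 3.06-fold that of wild type (in the fit 1.65 ± 0.04 log2, SE, edgeR, adjusted p = 5.08e-33). C1qtnf3, a secreted C1q and TNF related protein, had the same order at lower levels, with 8.82 and 7.80, 27.3 and 27.1, and 1.42 and 2.43 CPM.

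Il33, a cytokine stored in the nucleus of stromal cells, and Gdf10, a ligand of the TGF-beta family, stepped down with each genotype. Il33 had 239 and 224 CPM in wild type, 57.6 and 59.8 in heterozygous and 22.5 and 25.1 in knockout. Gdf10 had 19.3 and 21.0, 3.24 and 4.12, and 0.833 and 1.11 CPM. Heterozygous against wild type was -1.94 ± 0.05 log2 for Il33 (SE, edgeR, adjusted p = 2.01e-31), while Gdf10 met the floor through wild type and is described without a test. Knockout stood at 10.3% of wild type for Il33 and 4.82% for Gdf10. Slit3, a guidance ligand of Robo receptors, was close to the border of the rule, with 58.3 and 65.0, 47.9 and 48.8, and 27.8 and 25.5 CPM. Tfpi, the inhibitor of the tissue factor pathway of clotting, had 88.7 and 87.7, 80.4 and 76.9, and 35.1 and 38.5 CPM, and its heterozygous difference did not pass the threshold (edgeR, adjusted p = 0.0699). It passed with library totals alone and when just wild type and heterozygous were fitted (adjusted p = 0.0144 and 0.0493, range over 13 alternatives 0.0144 to 0.322). Ctla2a, an inhibitor of cathepsins, ranged from 3.18 CPM in knockout to 10.97 CPM in wild type, and its close relative Ctla2b makes its count uncertain.

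Surface proteins, receptors and transporters were the largest group, with 14 members. In heterozygous 5 were higher, 5 lower and 4 not past the threshold. Gpr34 and Ifitm10, among the higher, and Tspan18, among the lower, are given without a test. The mesenchymal surface markers Thy1 and Cd248, which encode CD90 and endosialin, were among the 3 highest members per length in wild type, at 197 and 162 CPM per kb. Thy1 had 371 and 369 CPM in wild type, 323 and 315 in heterozygous and 169 and 168 in knockout, and Cd248 had 411 and 435, 365 and 371, and 181 and 192 CPM. Heterozygous was lower in both by a small step that passed the threshold (-0.17 ± 0.03 and -0.16 ± 0.03 log2, SE, edgeR, adjusted p = 8.17e-06 and 4.18e-05). Knockout was at 45.5% and 44.1% of wild type.

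Cdh3, which encodes P-cadherin, a cell adhesion molecule, had 29.1 and 27.8 CPM in wild type, 35.2 and 30.7 in heterozygous and 6.30 and 7.61 in knockout, so its knockout share of wild type, 24.4%, was well under that of the markers above. Ptprf, the receptor phosphatase LAR, had 155 and 154, 187 and 179, and 83.9 and 88.0 CPM. Sorcs2, a sorting receptor for proneurotrophins, had 34.6 and 35.01, 58.5 and 53.8, and 15.2 and 14.8 CPM. Both were higher in heterozygous (0.29 ± 0.04 and 0.73 ± 0.07 log2, SE, edgeR, adjusted p = 8.69e-08 and 2.97e-11). Atp6v0e2, a subunit of the proton pump V-ATPase, had 11.2 and 10.3, 9.62 and 11.6, and 3.09 and 2.97 CPM, with overlapping wild-type and heterozygous libraries. The glycine transporter gene Slc6a9 had 45.5 and 44.1, 35.8 and 34.6, and 17.99 and 18.3 CPM, and was lower in heterozygous (-0.31 ± 0.07 log2, SE, edgeR, adjusted p = 0.000811). Ldlrad4, a membrane protein that dampens TGF-beta signalling, had the highest knockout share of wild type in the set, 56.6%, and its heterozygous level did not pass the threshold (edgeR, adjusted p = 0.334).

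Some members of this group are known from other cell types. Gpr34, a lysophospholipid receptor of macrophages and microglia, had 7.99 and 7.62 CPM in wild type, 11.5 and 12.9 in heterozygous and 2.47 and 1.56 in knockout, and the transporter gene Slco2b1 had 15.99 and 15.7, 17.5 and 17.7, and 6.27 and 5.13 CPM. The summed level of 20 macrophage markers went the other way, from 17385 and 17659 CPM in wild type to 19783 and 19801 in heterozygous and 20517 and 20604 in knockout. Of the 19 tested macrophage markers 13 were higher and 1 lower in knockout than in wild type, against 19.2% higher and 18.9% lower of all genes tested. Aif1 had 0 counts in all libraries. Tspan18 and Ecscr are known from endothelial cells. Tspan18 had 15.1 and 18.3, 4.29 and 3.78, and 1.98 and 1.35 CPM, and Ecscr had 14.99 and 16.8, 17.3 and 13.6, and 6.97 and 6.18 CPM. The 12 endothelial markers summed to between 173 and 178 CPM in wild type, 149 and 153 in heterozygous and 264 and 269 in knockout. Of the 9 tested, 4 were higher and 2 lower in knockout than in wild type, against the same 19.2% and 18.9% of all genes. In heterozygous 1 was higher and 4 lower than in wild type, against 19.2% and 19.7% of all genes. Within the list of 12, Cldn5 had 0 counts and Pecam1, Tie1, Emcn and Plvap were under 1 CPM in all libraries. The part of these cell types in the members' levels was not tested.

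Genes of the cytoskeleton and cytoplasm made up 8 members, of which 6 did not pass the threshold in heterozygous, with Kif26b higher and Pdzrn3 lower. As given above, both calls were lost without any 1 of the 4 wild-type and heterozygous libraries. Myh10, which encodes non-muscle myosin IIB, had 201 and 190 CPM in wild type, 187 and 193 in heterozygous and 95.1 and 103 in knockout. Its wild-type and heterozygous libraries overlapped (edgeR, adjusted p = 0.99), and knockout was at 50.6% of wild type. Nxn, a thioredoxin-like protein that binds Dishevelled, had 61.0 and 63.6, 63.0 and 69.8, and 30.3 and 27.2 CPM. Fam101b, now named Rflnb, a filamin-binding regulator of actin, had 21.0 and 17.96, 17.3 and 17.5, and 8.86 and 9.56 CPM. Tmod2, which caps actin filaments, the kinesin-like gene Kif26b, the ubiquitin ligase gene Pdzrn3, Ccdc8 and Fam131b, all named after their values were seen, reached 28.6% to 41.7% of wild type in knockout.

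Nuclear factors and genes derived from retroelements made up 6 members. In heterozygous Zcchc5 was lower and 4 did not pass the threshold, while the higher level of Meox1 is given without a test. Meox1, a homeobox factor of the sclerotome from which the vertebral column forms, had 6.43 and 4.90 CPM in wild type, 20.8 and 26.0 in heterozygous and 1.23 and 0.630 in knockout. Heterozygous mean CPM was 4.12-fold that of wild type but it met the floor through heterozygous, and its knockout level was 3.99% of heterozygous. Sertad4 had 20.0 and 18.9, 17.7 and 14.7, and 4.07 and 4.02 CPM, without a heterozygous difference past the threshold (edgeR, adjusted p = 0.141). Zcchc5, now named Rtl3, a gene derived from a retrotransposon Gag sequence on the X chromosome, had 35.5 and 33.9, 25.05 and 26.9, and 7.25 and 8.24 CPM. The transcription regulators Prdm16 and Tox and the MAGE family gene Tro, named after their values were seen, had a knockout share of 38.4% to 54.2% of wild type.

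H19 and Dnm3os are the noncoding RNAs of the set. H19, an imprinted transcript that is abundant in fetal mesoderm, had 184 and 180 CPM in wild type, 220 and 235 in heterozygous and 28.5 and 33.8 in knockout, and knockout was thus at 17.1% of wild type. Heterozygous was higher than wild type by 0.36 ± 0.04 log2 (SE, edgeR, adjusted p = 1.4e-08). Dnm3os, a transcript on the strand opposite to Dnm3 that is expressed in skeletal mesenchyme, had 28.3 and 29.4, 20.7 and 22.1, and 7.13 and 8.27 CPM, and its heterozygous level was lower (-0.39 ± 0.10 log2, SE, edgeR, adjusted p = 0.00151). Dnm3 itself lay between 2.06 and 2.87 CPM in the 6 libraries. The share of reads that the genes could have in common was not tested.

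Both RNAs are precursors of miRNAs, which silence targets mainly through the seed at bases 2 to 8. The mature sequences that lie inside the H19 gene (chr7:142575530-142578146) and the Dnm3os gene (chr1:162217623-162225550) are shown to tell which miRNAs these transcripts carry, taken from RefSeq on GRCm38.p6, 5′ to 3′, with the seed in capitals.
mmu-miR-675-5p in H19: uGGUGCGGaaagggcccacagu
mmu-miR-675-3p in H19: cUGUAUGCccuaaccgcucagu
mmu-miR-199a-5p in Dnm3os: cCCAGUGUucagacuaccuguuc
mmu-miR-199a-3p in Dnm3os: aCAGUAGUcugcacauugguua
mmu-miR-214-5p in Dnm3os: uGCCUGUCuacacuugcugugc
mmu-miR-214-3p in Dnm3os: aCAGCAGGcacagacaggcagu
The 6 seeds differ from each other. The miRNA genes Mir675, Mir199a-2 and Mir214 had 0 counts in all libraries, so the values above are those of the host transcripts and the mature miRNAs were not measured.

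Ifi202b met the rule only because the knockout libraries and the wild-type libraries were all at 0 counts, and it is not a gene lowered in knockout against wild type. It had 34.5 and 34.4 CPM in heterozygous, at least 389-fold higher than in wild type and 377-fold higher than in knockout with a limit of 3 counts per library. This interferon-inducible gene has near-identical neighbours, which makes its count uncertain.

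Most lists of genes with related roles were lower in knockout than in wild type more often than higher, those of matrix proteins and of receptors among them. Of 84 tested matrix and matricellular genes, 48 were lower and 23 higher in knockout than in wild type (edgeR, adjusted p under 0.05), against 18.9% lower and 19.2% higher of all genes tested, with a median of -0.32 log2 against -0.0031 for all genes. The 8 members in that list, Postn, Eln, Mfap4, Ltbp4, Lama4, Aspn, Podn and Wisp1, were chosen by this contrast and add to the lower count. In heterozygous against wild type 44 of the 84 were higher and 25 lower, with a median of 0.27 log2, against 19.2% higher and 19.7% lower of all genes. Against heterozygous 61 of the 84 were lower and 10 higher in knockout, and the 8 members again add to the lower count. Of all genes tested, 17.9% were lower and 19.1% higher in knockout against heterozygous. The receptor and kinase list had 50 of 83 lower and 14 higher in knockout against wild type, with a median of -0.40 log2. Against heterozygous 48 were lower and 11 higher in knockout, while heterozygous against wild type had 31 higher and 28 lower. The receptor list held no member, since Ptprf, Gpr34 and Sorcs2, described above as receptors, were not in it. Mesenchymal transcription factors had 33 of 71 lower and 19 higher in knockout against wild type, with a median of -0.44 log2 and Meox1 as the member. Against heterozygous 35 were lower and 12 higher in knockout, while heterozygous against wild type had 30 higher and 25 lower.

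Of 45 tested genes of the actin cytoskeleton, 35 were lower and 4 higher in knockout against wild type. In heterozygous against wild type 29 were lower and 7 higher. The medians were -0.36 and -0.23 log2, with Myh10 as the only member in the list. For this and the next lists, the background in knockout against wild type is 18.9% lower and 19.2% higher of all genes tested. For heterozygous against wild type it is 19.7% lower and 19.2% higher. Cell junction and adhesion genes had 29 of 51 lower and 9 higher in knockout and 26 lower and 8 higher in heterozygous, with Cdh3 and Thy1 as members. Both comparisons share the wild-type libraries. Of 77 growth factors and cytokines, 27 were higher and as many, 27, lower in knockout with a median of 0.22 log2, and they hold the members Gdf10, Il33 and Slit3. Solute carriers had 23 of 46 lower and 10 higher, with Slco2b1 as member, while the member Slc6a9 was not in this list. Ion channels had 17 of 46 lower and 14 higher, with no member in the list. In knockout against heterozygous, actin genes had 27 lower and 8 higher, and junction and adhesion genes 18 and 11. Growth factors had 24 lower and 17 higher, solute carriers 13 and 12, and ion channels 15 and 9. The background there is 17.9% lower and 19.1% higher of all genes tested. Among the markers of pericytes and smooth muscle 7 of 11 were lower and 1 higher in knockout than in wild type. Their summed level was 3409 and 3450 CPM in wild type, 2562 and 2566 in heterozygous and 2212 and 2218 in knockout. Their part in the members' levels was not tested.

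Other marker lists were counted in the same way, each against wild type. The background is again 18.9% lower and 19.2% higher of all genes tested in knockout, and 19.7% lower and 19.2% higher in heterozygous. Fat cell markers summed to 210 and 213 CPM in wild type, 382 and 387 in heterozygous and 519 and 521 in knockout, with Lep at 0 counts in all libraries, and of 8 tested 7 were higher in knockout and 8 in heterozygous against wild type, with none lower. The markers of meningeal and arachnoid cells had 13 of 22 lower and 5 higher in knockout and 14 lower and 3 higher in heterozygous, Slc6a20a and Slc22a6 were at 0 counts, and their sum, 11030 and 11046 CPM in wild type, 9610 and 9781 in heterozygous and 14770 and 14974 in knockout, also holds Spp1, which was at 9232 CPM or more in every library. Schwann cell and neuron markers had 8 of 17 lower and 3 higher in knockout, while their summed level was 301 and 302 CPM in wild type, 399 and 401 in heterozygous and 394 and 417 in knockout, with Nefl at 0 counts. Cartilage cell markers summed to 67.9 and 70.3 CPM in wild type, 315 and 305 in heterozygous and 134 and 129 in knockout. Of 7 tested, 3 were higher and 0 lower in knockout, and 3 higher and 1 lower in heterozygous. In knockout against heterozygous 1 was higher and 2 lower. Epithelial markers summed to 26.4 CPM or less and skeletal muscle markers to 15.5 CPM or less in every library. None of the members was in these lists, and the part of these cells in the members' levels was not tested.

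The members lay on 18 chromosomes, with 8 of 926 tested genes on chromosome 4, 8 of 1146 on chromosome 7 and 7 of 1198 on chromosome 11 (GRCm38, RefSeq). Slc6a9 and B4galt2 are 3695 bases apart on chromosome 4 (chr4:117835258-117869305 and chr4:117873000-117883519), with Ptprf (chr4:118208213-118291405) beyond them. Their heterozygous levels differed, with Slc6a9 lower, Ptprf higher and B4galt2 not past the threshold (edgeR, adjusted p = 0.784). Fam101b and Nxn on chromosome 11 and Ifitm10 and H19 on chromosome 7 were the other neighbours within 500 kb. Ifitm10 had 7.88 and 7.92 CPM in wild type, 12.5 and 11.7 in heterozygous and 3.15 and 3.48 in knockout, and it met the floor through heterozygous.

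Some members overlap another protein-coding gene, and the strand setting of the counting is not given, so reads from both could be mixed. Cask, around Gpr34, was at 74.0 and 75.4 CPM in wild type and 66.0 and 68.5 in knockout, well above Gpr34, while Cenpp, which overlaps Aspn, was at 3.78 CPM or less in every library. Ccdc24, next to and overlapping Slc6a9, had 3.51 and 3.40 CPM in wild type, 2.03 and 2.34 in heterozygous and 0.864 and 1.199 in knockout, the same order as Slc6a9. Maz, which overlaps Prrt2, was at 133 and 135 CPM in wild type and 155 and 144 in knockout, while Prrt2 had 12.4 and 12.8 CPM in wild type and 3.92 and 4.50 in knockout.

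Promoter windows from RefSeq (GRCm38.p6), of 300 bases each, were found for 35 members, with 51 windows. The letters TATAAA, the TATA box, occurred on either strand in windows of 8 of these 35 genes (22.9%), against 15.7% of all 27018 genes in the table, and GGAATG, the core bound by TEAD factors, in 9 (25.7%) against 16.6%. The AP-1 motif TGANTCA was found in 4 (11.4%) against 8.98%, the RBPJ core TGGGAA in 10 (28.6%) against 28.3%, the FOX motif TGTTTAC in 1 (2.86%) against 4.05%, and the cyclic AMP response element TGACGTCA in 0 against 2.03%. The SRF CArG box was found in 1 gene, Dnm3os (2.86% against 1.81%). A gene counts here if any of its windows holds the motif, and members had 51 windows for 35 genes against 32841 for 27018 genes. Per window the RBPJ core was in 21.6% of member windows against 25.6% of all, the reverse of its gene shares. TATAAA was in 19.6% against 13.6% and GGAATG in 21.6% against 14.7%, and the other motifs also kept their direction. These shares are a description of letters and no test was made. The 250 bases before the start are shown for 3 members with different orders of genotypes, Postn highest in heterozygous, Il33 and Dnm3os highest in wild type, because a motif stands close to the start in each, 5′ to 3′ on the plus strand, with the motifs above in capitals.
Postn, chr3:54360857-54361106: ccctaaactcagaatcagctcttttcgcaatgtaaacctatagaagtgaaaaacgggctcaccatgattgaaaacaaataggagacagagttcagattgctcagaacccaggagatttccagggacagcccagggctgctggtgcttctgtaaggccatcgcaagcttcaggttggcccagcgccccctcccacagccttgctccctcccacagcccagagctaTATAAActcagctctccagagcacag
Il33, chr19:29945540-29945789: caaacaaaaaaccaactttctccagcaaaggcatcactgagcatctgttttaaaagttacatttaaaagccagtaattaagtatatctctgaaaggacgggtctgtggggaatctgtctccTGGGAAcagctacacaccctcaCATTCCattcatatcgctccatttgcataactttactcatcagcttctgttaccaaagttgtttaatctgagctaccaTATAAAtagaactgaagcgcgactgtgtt
Dnm3os, chr1:162217373-162217622: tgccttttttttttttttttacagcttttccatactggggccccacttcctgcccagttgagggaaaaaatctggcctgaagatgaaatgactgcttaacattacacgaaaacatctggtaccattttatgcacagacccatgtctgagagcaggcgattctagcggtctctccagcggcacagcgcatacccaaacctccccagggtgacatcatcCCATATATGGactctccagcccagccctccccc
The TATA box begins at -26 in this Postn window and at -29 in this Il33 window, counted from the start site, and the CArG box at -33 in Dnm3os. The Il33 window also holds the RBPJ core and, as CATTCC on the strand shown, the TEAD core. Postn and Il33 each have a second window, and that of Postn holds none of the motifs in its 250 bases.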

How the data were processed

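The authors deposited 1 table of raw read counts for 46095 gene symbols, with a column per library that was assigned by its title. Per the submitters' processing notes, HISAT2 (2.0.4) and the build GRCm38 were used. No source used here names the counting tool, annotation or strand setting. CPM were computed from the column totals. Tests used edgeR version 4.0.16 in R version 4.3.3 on all 6 libraries, with TMM factors from 0.974 to 1.02, the default filter by genotype (16061 genes, all 54 members among them), a robust quasi-likelihood fit with 3 residual degrees of freedom and two-sided tests, adjusted by Benjamini-Hochberg over all tested genes. The SE is the log2 fold change divided by the square root of F. The procedure was run on simulated data in which all genes had the same dispersion and few were changed. That setting differs from these data, so it does not measure the error of the calls above. DESeq2 version 1.42.0 was an alternative.

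The members and gene lists were chosen with earlier results of these data known. Genes are named by rank in the rule (15), by level (10), by list, by the heterozygous comparison, by neighbour and by the border of the rule, and further members were named after their values were seen. Roles were assigned after the members were known. Positions and sequences come from RefSeq on GRCm38.p6, matched by symbol for 51 members and by synonym for 3, and exon lengths from GENCODE on GRCm38. A count of 0 allows up to 3 counts, or 0.0885 to 0.101 CPM. This floor covers counting error only, while each SE comes from the spread between libraries.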

Additional observations from a re-analysis of the deposited data

How the results depend on the processing

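Of the 54 members, 45 kept their side of the threshold in heterozygous against wild type under all 13 alternatives (RLE factors, library totals, DESeq2, no or a stricter filter, the fit of only the 4 libraries compared, the replicate block, and leaving out each of the 6 libraries), and 9 did not, namely Cdh3, Kif26b, Mfap4, Pdzrn3, Prrt2, Nxn, Ctla2a, Tfpi and P4ha3. No member past the threshold changed its direction, while 9 that did not pass it changed sign around 0 (Atp6v0e2, B4galt2, Ccdc8, Ecscr, Myh10, Pycr1, Tmod2, Tox and Tro). Over the 46 members at the floor in both genotypes, a choice made after the data were seen, 14 were higher and 13 lower. The counts over all 54 also cover the 8 members described without a test. Over all 54, members called ranged from 15 to 18 higher and from 14 to 19 lower. With the replicate block the counts were 18 higher and 16 lower, and the block changed no member's call. The labels link same-numbered libraries by their number only. Over 10040 genes their deviations from the genotype means correlated at -0.0071 between heterozygous and wild type. The values were 0.014 between knockout and wild type and 0.018 between heterozygous and knockout. These values give no sign of a pairing, but with 2 libraries per genotype they cannot exclude one. With library totals alone the calls of knockout against heterozygous over all genes moved from 3070 higher and 2881 lower to 4126 and 2256.

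The number of members depended on the rule: 96 genes met it with a fold of 1.5 and 29 with a fold of 2. Chosen after the data were seen, the rule without the heterozygous libraries was met by 246 genes, which included 50 of the 54 members. Leaving out 1 library gave 58 to 75 genes. With 2 libraries per genotype, and levels as low as 8.14 CPM in the mean, small differences of low members are limited by depth.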
